A study of Mus musculus with 4 samples.

Results

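Haptoglobin, hemopexin, ceruloplasmin, the 4 heavy chains of inter-alpha inhibitor and both fetuins are plasma proteins that hepatocytes secrete. The 9 genes (Hp, Hpx, Cp, Itih1, Itih2, Itih3, Itih4, Ahsg and Fetub) were taken by their symbols from a table of 54532 genes, and all 9 were among the 13403 genes tested. The table holds messenger RNA counts per gene from livers of C57BL/6 mice, an inbred strain. Of the 4 libraries, 2 are labelled HFD (334 and 335), letters that usually stand for a high-fat diet in mouse liver work, and 2 are labelled HFD+I3A (303 and 305, called I3A below). I3A is given by this abbreviation alone, so all 4 livers carry the HFD label and the groups differ in I3A. Sex, age, dose and duration are not given in the labels, and no liver without HFD was analysed here. The series title asks about hepatic mitochondrial respiration in a model of fatty liver.

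Haptoglobin binds haemoglobin freed from red cells, and hemopexin binds free haem; both complexes are cleared by receptors on macrophages and hepatocytes. Ceruloplasmin is the copper-carrying ferroxidase of plasma. The heavy chains of inter-alpha inhibitor are linked to the light chain bikunin in hepatocytes and are passed on to hyaluronan in the tissue matrix, whereas the heavy chain of Itih4 circulates without bikunin. Fetuin-A (Ahsg) keeps calcium phosphate from precipitating, and fetuin-B (Fetub) inhibits a protease of the egg. In the acute phase response, which IL-6 and STAT3 drive in hepatocytes, some genes of this group, such as Hp, can be induced. The level of others, such as Ahsg, can drop.

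Library totals were 15005668 counts (HFD 334), 15942728 (HFD 335), 15649281 (I3A 303) and 18255623 (I3A 305). Hepatocyte markers were present in each library (7 of 7 above 0, summed level 74267 to 82498 CPM). Alb alone gave 52433 to 57445 CPM of this sum. Between the groups 3 of the 7 did not overlap on the higher side and 2 on the lower, beside 23.1% and 22.5% of tested genes. CPM are read counts divided by library size, which was first corrected for library composition by TMM. HFD 335 held transcripts of other tissues: 7 skeletal muscle markers summed to 739 CPM there and to 0.844 to 0.963 CPM elsewhere. Summed markers of exocrine pancreas (104 CPM, against 0.520 to 1.97 CPM elsewhere), of smooth muscle and mesothelium (89.7 CPM, against 2.76 to 2.84 CPM) and of adipocytes (114 CPM, against 30.6 to 65.9 CPM) were highest there too. Summed neutrophil markers, of cells that can hold haptoglobin, were 3.96 and 2.48 CPM in HFD and 3.47 and 4.41 CPM in I3A. Of 8 markers, 1 did not overlap between the groups in each direction, beside 23.1% of tested genes apart on the higher side and 22.5% on the lower. Both rest on few counts. S100a9, on the higher side, had 9 in each HFD library and 10 and 23 in I3A. Retnlg, on the lower side, had 1 and 4 in HFD and 1 in each I3A library, too low to be tested. Summed markers of liver endothelium were 128 and 199 CPM in HFD and 120 and 51.5 CPM in I3A, and those of stellate cells 87.1 and 245 CPM in HFD and 86.2 and 25.0 CPM in I3A, lowest in I3A 305 in both cases. Of the stellate sum in HFD 335, 105 CPM came from Des, which muscle also expresses; without Des, left out after seeing the values, the sums were 83.1 and 140 CPM in HFD and 82.9 and 22.8 CPM in I3A. In whole liver, fewer cells of a type and less RNA per cell cannot be told apart.

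Of the 9 genes, 4 stood more than 2-fold higher in I3A than in HFD livers, namely Hp, Hpx, Itih3 and Itih4. Itih2 was 1.54-fold and Itih1 1.27-fold higher, while Cp, Ahsg and Fetub differed by 1.15-fold or less. None passed edgeR's quasi-likelihood test at an adjusted p of 0.05, with adjusted p from 0.145 (Hp and Itih3) to 0.878 (Fetub), and neither did any of the 13403 genes (0.00%). At an unadjusted p under 0.05 stood 6 of the 9, all higher in I3A (Hp, Hpx, Itih1, Itih2, Itih3 and Itih4), beside 6.66% of tested genes in that direction; 1729 genes (12.9%) stood there in either direction. DESeq2 called 5 of the 9 (Hp, Hpx, Itih2, Itih3 and Itih4), beside 1.81% of its genes called higher and 335 called in all, whereas limma-voom called 0 genes. The log2 fold change was above 0 for all 9, beside 48.5% of tested genes, and its median was 0.63 (edgeR), beside -0.010 over all tested genes.

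**Figure D1:**
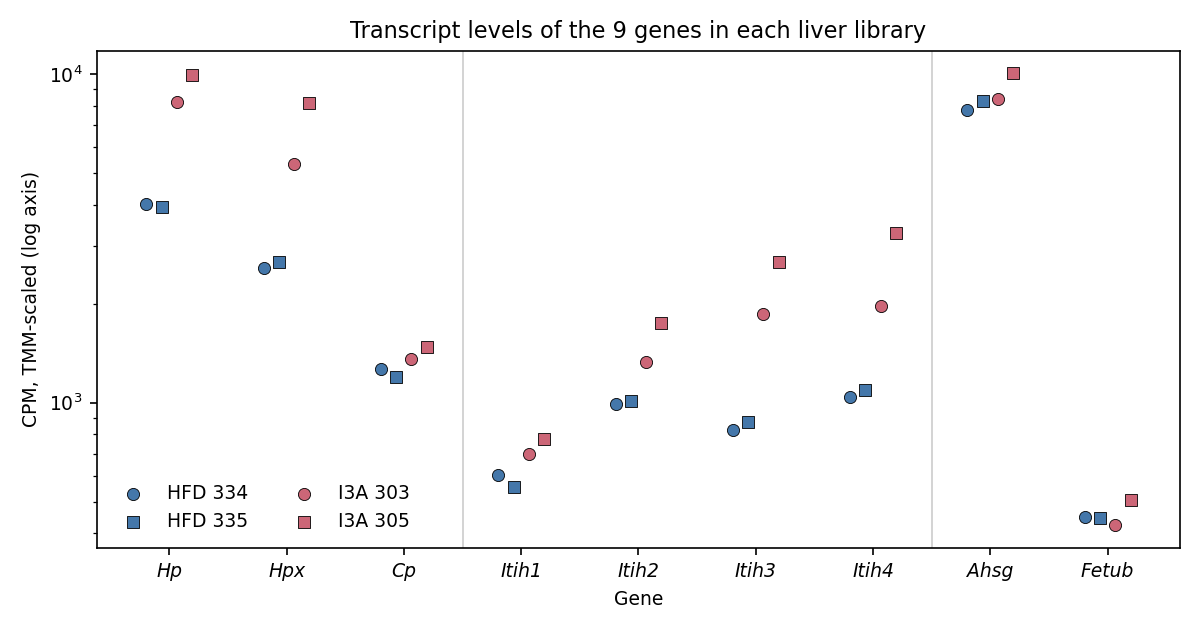
Level of each of the 9 genes (x axis) in CPM (y axis, log scale), with 1 point per library; blue points are HFD (334 circle, 335 square) and red points are I3A (303 circle, 305 square), and grey lines part the scavengers and ceruloplasmin, the heavy chains and the fetuins. For Hp the HFD points lie at 4024 and 3946 CPM and the I3A points at 8233 and 9928 CPM, whereas for Fetub the HFD points lie between the I3A points.

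Hp (chromosome 8, 109575128 to 109579172, minus strand, GRCm38; 5 exons in its principal transcript) measured 4024 CPM in HFD 334 and 3946 CPM in HFD 335, against 8233 CPM in I3A 303 and 9928 CPM in I3A 305. Both I3A livers were thus more than 2-fold above both HFD livers, with a factor of 2.05 between the nearest libraries. The log2 fold change was 1.19 ± 0.16 (SE; 95% interval 0.80 to 1.58; edgeR unadjusted p = 3.81e-04, adjusted p = 0.145). By mean level Hp ranked 17 among all genes in the table. Its neighbours on the chromosome, Txnl4b at a distance of 1076 bases and Dhx38 at 9266 bases, had log2 fold changes of -0.33 ± 0.18 and -0.0020 ± 0.14 (SE) with edgeR adjusted p of 0.480 and 0.996.

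Hpx (chromosome 7, 105591613 to 105600137, minus strand; 10 exons) measured 2566 CPM in HFD 334, 2690 CPM in HFD 335, 5318 CPM in I3A 303 and 8171 CPM in I3A 305. The groups did not overlap, and the I3A livers lay further apart from each other (1.54-fold) than the HFD livers (1.05-fold). The log2 fold change was 1.36 ± 0.23 (SE; 95% interval 0.79 to 1.93; edgeR adjusted p = 0.174). It was 1.014 without I3A 305 and 1.65 without I3A 303. Hp and Hpx together made up 64.5% of the difference between the summed means of the 9 genes, which were 19834 CPM in HFD and 34108 CPM in I3A.

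Cp (chromosome 3, 19957054 to 20009145, plus strand; 20 exons) measured 1265 and 1195 CPM in HFD 334 and 335, and 1356 and 1478 CPM in I3A 303 and 305. The groups were apart by a factor of only 1.07 between the nearest libraries. The log2 fold change was 0.20 ± 0.12 (SE; 95% interval -0.088 to 0.50; edgeR adjusted p = 0.501), so the interval holds values from slightly below no difference to 1.41-fold. Exons of Cp share 108 bases with Hps3 on the opposite strand and strand marking is stated for neither kit nor counting; counts of Hps3 came to 0.504% of those of Cp.

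The heavy chain genes fall into a cluster of 3 on chromosome 14 and Itih2 on chromosome 2. Itih4 (30886476 to 30902353, plus strand; 23 exons), Itih3 (30908572 to 30923760, minus strand; 22 exons) and Itih1 (30929180 to 30943289, minus strand; 22 exons) follow each other with gaps of 6218 and 5419 bases. All 4 were higher in both I3A livers than in both HFD livers, beside 23.1% of tested genes, but by different amounts.

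Itih3 measured 824 and 875 CPM in HFD 334 and 335, and 1859 and 2680 CPM in I3A 303 and 305. It had the highest fold of the 9 genes, 2.67, with a factor of 2.12 between the nearest libraries of the groups (log2 fold change 1.42 ± 0.20, SE; 95% interval 0.92 to 1.91; edgeR adjusted p = 0.145). Without I3A 305 its log2 fold change was 1.13 and without I3A 303 1.67. Itih4 measured 1043 and 1092 CPM in HFD 334 and 335, and 1971 and 3290 CPM in I3A 303 and 305. Of the 9 genes it had the widest gap between the I3A livers, 1.67-fold, beside 1.05-fold between the HFD livers. Its log2 fold change of 1.30 ± 0.25 (SE; 95% interval 0.67 to 1.93; edgeR adjusted p = 0.211) was 0.88 without I3A 305 and 1.64 without I3A 303.

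Itih1, which codes for one of the heavy chains joined to bikunin and lies next to Itih3, measured 603 and 553 CPM in HFD 334 and 335, and 696 and 775 CPM in I3A 303 and 305. Its log2 fold change was 0.35 ± 0.12 (SE; 95% interval 0.056 to 0.64; edgeR unadjusted p = 0.0273, adjusted p = 0.334). Inside each library the level of Itih3 per kilobase was 1.24 and 1.43 times that of Itih1 in HFD 334 and 335, and 2.42 and 3.13 times in I3A 303 and 305. This ratio does not depend on how libraries are scaled; it was added after the values had been seen, and no exact permutation test of 2 against 2 libraries can reach 0.05. Itih2 (chromosome 2, 10094593 to 10131396, minus strand; 21 exons), the other heavy chain of the complete inter-alpha inhibitor, measured 987 and 1011 CPM in HFD 334 and 335, and 1330 and 1753 CPM in I3A 303 and 305. Its log2 fold change of 0.63 ± 0.16 (SE; edgeR unadjusted p = 0.00965, adjusted p = 0.270) lay between those of Itih1 and of Itih3 and Itih4, and the groups did not overlap. It was 0.41 without I3A 305.

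Beside the cluster lie Nek4, Tmem110 and Mustn1, which code for no heavy chain. None of these passed the test, but neither did any gene, so the test does not set them apart from the heavy chain genes. Nek4, at 8087 bases from Itih1, measured 14.9 and 13.3 CPM in HFD and 16.1 and 16.2 CPM in I3A (log2 fold change 0.19 ± 0.14, SE; edgeR adjusted p = 0.607), and Tmem110, at 9265 bases from Itih4, had 0.14 ± 0.18 (edgeR adjusted p = 0.778). Mustn1, at 4865 bases from Itih4, measured 5.07 and 10.8 CPM in HFD and 6.29 and 3.30 CPM in I3A (log2 fold change -0.73 ± 0.47, SE; edgeR adjusted p = 0.546), with overlapping groups and the highest value in HFD 335, the library that holds transcripts of muscle and other tissues.

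**Figure D2:**
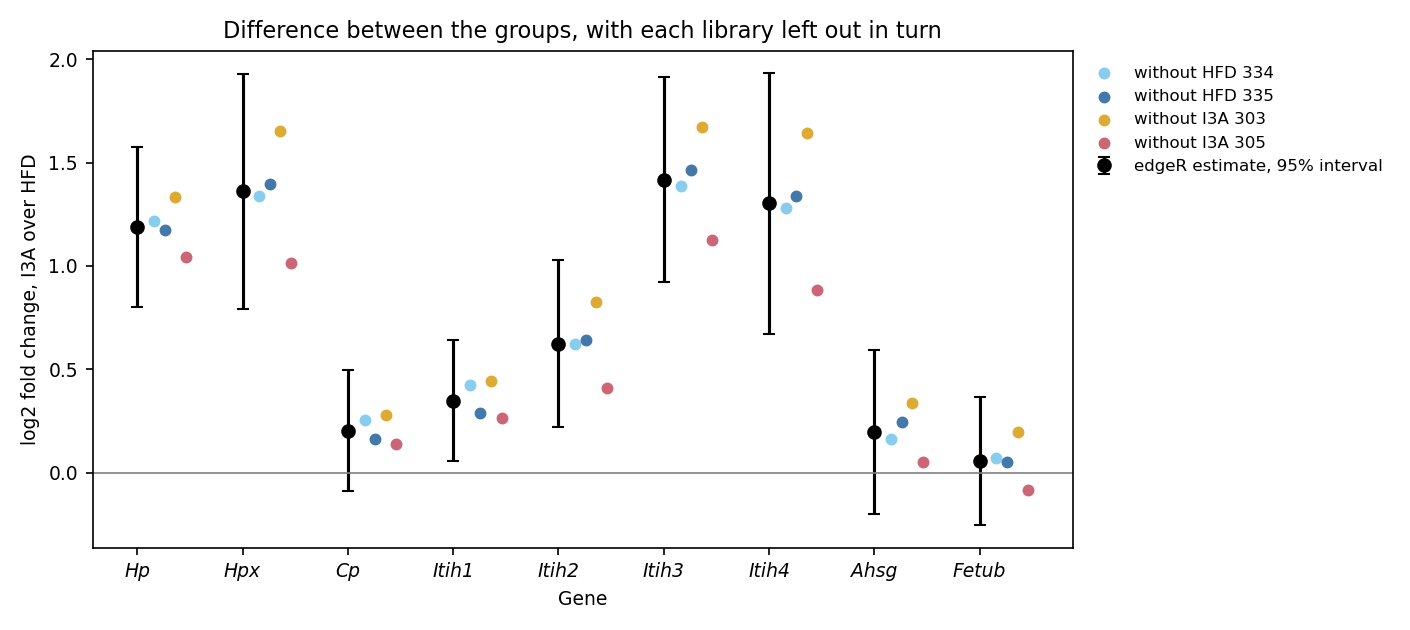
Log2 fold change of I3A over HFD (y axis) for each of the 9 genes (x axis); black points are the edgeR estimates from 4 libraries with their 95% intervals, and coloured points are the estimates with 1 library left out. Leaving out I3A 305 gives the lowest value for every gene shown (Hp 1.04, Fetub -0.082) and leaving out I3A 303 the highest (Hp 1.33, Fetub 0.20).

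The fetuin genes lie 18884 bases apart on chromosome 16. Ahsg (22891277 to 22899449, plus strand; 7 exons) measured 7791 and 8310 CPM in HFD 334 and 335, and 8384 and 10066 CPM in I3A 303 and 305. The nearest libraries of the groups nearly met (8310 and 8384 CPM), and the log2 fold change was 0.20 ± 0.16 (SE; 95% interval -0.20 to 0.59; edgeR adjusted p = 0.640). Fetub (22918334 to 22939778, plus strand; 9 exons) measured 448 and 447 CPM in HFD 334 and 335, and 423 and 507 CPM in I3A 303 and 305. Here the groups overlapped, and the log2 fold change was 0.056 ± 0.12 (SE; 95% interval -0.25 to 0.37; edgeR adjusted p = 0.878). The sign for Fetub turned with library size scaling alone (-0.035) and without I3A 305 (-0.082). Both intervals include no difference, and they run from 0.870-fold to 1.51-fold for Ahsg and from 0.839-fold to 1.29-fold for Fetub.

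Set against Ahsg inside each library, Hp per kilobase stood at 0.707 and 0.649 in HFD 334 and 335, and at 1.34 and 1.35 in I3A 303 and 305. The I3A libraries thus gave nearly one value for this ratio although both genes were higher in I3A 305 than in I3A 303. The ratio of Hp to Hpx was 1.46 and 1.37 in HFD, and 1.44 and 1.13 in I3A, with overlapping groups. That of Itih3 to Itih4 was 0.802 and 0.813 in HFD, and 0.956 and 0.826 in I3A, and that of Itih1 to Itih2 was 0.615 and 0.550 in HFD, and 0.527 and 0.445 in I3A. Fetub to Ahsg was 0.0644 and 0.0602 in HFD, and 0.0566 and 0.0564 in I3A. These 5 ratios and that of Itih3 to Itih1 are descriptions without a test.

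Per length, as CPM divided by the deposited gene length in kilobases (RPKM), the levels in HFD livers were led by Ahsg (3546 and 3783 in HFD 334 and 335). Hp (2506 and 2457), Hpx (1712 and 1794), Itih2 (298 and 305) and Itih4 (283 and 296) followed in this order. Then came Itih3 (226 and 241) and Fetub (228 in each), Itih1 (183 and 168) and Cp (132 and 125). Only the values of Itih3 and Fetub overlapped there. In I3A livers Hp came first in each library (5126 and 6182 in I3A 303 and 305), but its range overlapped that of Hpx (3548 and 5451), which in turn overlapped Ahsg (3816 and 4582). Itih4 (534 and 892) and Itih3 (511 and 737) also overlapped, as did Itih3 and Itih2, with Itih4 above Itih2 (401 and 529) in both I3A livers, the reverse of their order in HFD. Fetub (216 and 258), Itih1 (211 and 235), which overlapped, and Cp (142 and 155) followed. The deposited length of Cp, 9566 bases, joins the exons of many transcripts (16 in GENCODE), which lowers its value on this scale. The other genes have several transcripts too (8 for Ahsg, 3 for Hp), so the order depends on the lengths used. In CPM Ahsg was above Hp in both I3A 303 (8384 against 8233) and I3A 305 (10066 against 9928). As a share of all counts the 9 genes took 2.01% (exact binomial 95% interval 1.999% to 2.013%, counting error only) in HFD 334, 2.08% (2.077% to 2.091%) in HFD 335, 2.94% (2.935% to 2.952%) in I3A 303 and 3.65% (3.643% to 3.661%) in I3A 305.

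All 9 genes were higher in I3A 305 than in I3A 303, by 1.09-fold (Cp) to 1.67-fold (Itih4), beside 49.7% of tested genes. Of the 9, 6 lay more than 1.2-fold apart in that direction, beside 16.4% of tested genes. For all 9 the gap between the I3A livers was wider than that between the HFD livers, beside 49.0% of tested genes. The largest gap between the HFD livers was 0.13 on the log2 scale (Itih1), although HFD 335 carried transcripts of other tissues. The 9 genes share these libraries and are not separate observations of that order. Between the groups, 8 of the 9 genes did not overlap, all higher in I3A, beside 23.1% of tested genes; the exception was Fetub.

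**Figure D3:**
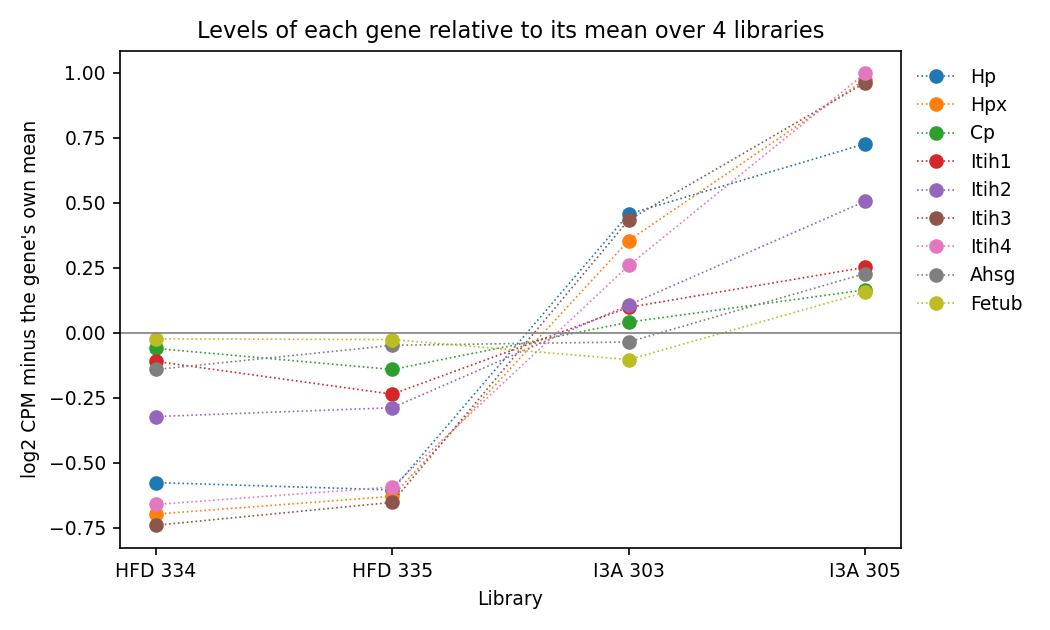
Log2 CPM of each of the 9 genes less its own mean (y axis) in the 4 libraries (x axis), with 1 colour per gene; dotted lines only join points of a gene and imply no order among libraries. Hpx, Itih3 and Itih4 run close together, from -0.70, -0.74 and -0.66 in HFD 334 to 0.973, 0.961 and 0.997 in I3A 305, whereas Cp, Ahsg and Fetub stay between -0.14 and 0.23.

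Likeness of pattern was measured as the root mean square distance between centred log2 CPM over the 4 libraries, against 2557 other genes whose mean reached 50 CPM. Among the 9 genes the closest pair was Hpx and Itih3 (distance 0.047), and Hpx and Itih4 followed (0.056), while Itih3 and Fetub were farthest apart (0.68). Over all genes Hpx was closest to Got1, a cytosolic aspartate aminotransferase (0.017), Igfbp1, which binds insulin-like growth factors in plasma (0.034), and Itih3. Itih3 was closest to Cth, an enzyme of cysteine synthesis (0.037), and Itih4 to Cyp3a13 (0.033), Asl of the urea cycle (0.036) and Igfbp1 (0.040). Hp was closest to the kinase gene Camk1d (0.057) and to Bhmt, which remethylates homocysteine (0.092). Itih1 was closest to Zwint (0.017) and then to the kininogen genes Kng2 (0.018) and Kng1 (0.021), and Itih2 to Arsg (0.011) and the glycolytic enzyme Tpi1 (0.026). Cp, Ahsg and Fetub, which varied little, were closest to Sidt2 (0.011), Hipk3 (0.0098) and Txnrd1 (0.011). With 4 libraries such distances describe these samples only.

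Promoter sequence was sought for all 9 genes. The windows printed below were picked with the values known. Hpx and Itih4 were both over 2-fold higher in I3A while Itih1, beside Itih3 in the same cluster, was not. RefSeq promoters (GRCm38.p6) matched 8 of the 9 symbols, all but Hp. The 250 bases before the start were searched on both strands for TTCNNNGAA, the core bound by STAT factors, and TTNNGNAA, a loose C/EBP core. Below are the windows of Hpx (chr7:105600138-105600366, minus strand, without the last 21 bases, which lie in an annotated exon), Itih4 (chr14:30886226-30886475, plus strand) and Itih1 (chr14:30943290-30943539, minus strand), each 5′ to 3′ along the gene. Capitals mark a STAT match in Itih4 and C/EBP matches in Hpx and Itih1.
Hpx: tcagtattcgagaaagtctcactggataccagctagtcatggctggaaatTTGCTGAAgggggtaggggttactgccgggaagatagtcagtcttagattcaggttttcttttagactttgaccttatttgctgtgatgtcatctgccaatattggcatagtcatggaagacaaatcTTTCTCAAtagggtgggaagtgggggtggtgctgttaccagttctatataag
Itih4: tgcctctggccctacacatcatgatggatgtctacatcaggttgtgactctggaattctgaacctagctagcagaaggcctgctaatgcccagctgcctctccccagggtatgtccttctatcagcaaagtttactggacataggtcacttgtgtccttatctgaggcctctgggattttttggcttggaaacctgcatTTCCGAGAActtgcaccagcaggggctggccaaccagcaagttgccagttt
Itih1: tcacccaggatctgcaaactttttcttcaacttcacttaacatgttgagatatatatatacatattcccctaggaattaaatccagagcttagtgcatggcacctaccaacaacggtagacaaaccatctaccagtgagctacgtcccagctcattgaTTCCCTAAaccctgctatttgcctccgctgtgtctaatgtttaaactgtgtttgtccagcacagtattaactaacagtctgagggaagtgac
The single STAT match among these promoters, TTCCGAGAA in Itih4, spans bases -51 to -43 from the start. STAT matches were found in 7.02% of 32851 promoters of the same length, and C/EBP matches in 36.8%. Hpx had 2 C/EBP matches and no STAT match, Itih1 had 1 C/EBP match, Itih2 had 2 and Itih3 had neither motif; 173 of the 250 bases of the Itih3 window lie at or after the first annotated exon base of the gene. GTTAAT, part of the site bound by HNF1, was present in the Itih1 window and in one of 2 Cp windows, beside 6.43% of promoters, and ACANNNTGT, a core of glucocorticoid receptor sites, was in none of the 8 genes' windows, beside 5.84% of promoters. C/EBP matches were also present for Cp, Ahsg and Fetub, the 3 genes that differed least. The windows of Itih2, Ahsg and start 2 of Fetub lie inside the annotated gene, and sequence just after these starts was in no GENCODE transcript. For start 2 of Cp and start 1 of Fetub, 195 and 48 of the 250 bases lie at or after the first annotated exon base. It is thus uncertain whether the matches in these windows lie before the start in use. No STAT match overlapped a C/EBP match. These are matches of letters in short windows and do not show binding.

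Of 17 genes listed as partners in hyaluronan binding and turnover, 10 were tested, 0 at an unadjusted p under 0.05 in either direction, beside 6.66% of all tested genes higher and 6.24% lower (edgeR; median log2 fold change -0.17). Ambp, which codes for bikunin, the light chain of inter-alpha inhibitor, measured 1930 and 1698 CPM in HFD and 1792 and 2108 CPM in I3A (log2 fold change 0.10 ± 0.14, SE; edgeR adjusted p = 0.795). The groups overlapped for Ambp, in contrast to the 4 heavy chain genes, which were apart on the higher side like 23.1% of tested genes. The sign of Ambp turned without I3A 305 (-0.020). Itih5, a heavy chain relative next to Itih2, measured 9.09 and 19.4 CPM in HFD and 19.9 and 25.2 CPM in I3A (log2 fold change 0.66 ± 0.36, SE; edgeR adjusted p = 0.480; 1.31 without HFD 335 and 0.23 without HFD 334). Tnfaip6, the enzyme that moves heavy chains onto hyaluronan, had 5 and 6 counts in HFD and 0 in each I3A library, where 0 allows up to 3 counts or 0.193 CPM; it was too low to be tested. Cd44, a hyaluronan receptor, measured -0.28 ± 0.26 (log2 fold change, SE; edgeR adjusted p = 0.688; -0.029 without HFD 335). The scavenger receptor Stab1 (-0.57 ± 0.24), the hyaluronan receptor Lyve1 (-1.19 ± 0.73) and the hyaluronidase Cemip2, listed as Tmem2 (-0.78 ± 0.39), did not pass (edgeR adjusted p from 0.400 to 0.525). For Lyve1 the value was -0.015 without HFD 335 and -2.15 without I3A 303. Leaving out I3A 305 or I3A 303 gave -0.29 and -0.90 for Stab1, and -0.32 and -1.44 for Cemip2. All 3 genes were lowest in I3A 305, as were the summed endothelial markers given above, whose part in these values was not tested.

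Among 12 genes that take up or process haemoglobin, haem and iron, 2 stood at an unadjusted p under 0.05 on the higher side and 1 on the lower side, beside 6.66% and 6.24% of all tested genes (edgeR; median 0.15). Cd163, the macrophage receptor of the haptoglobin-haemoglobin complex, measured 4.09 and 7.20 CPM in HFD and 10.7 and 11.1 CPM in I3A. The log2 fold change of Cd163 was 0.94 ± 0.30 (SE; edgeR unadjusted p = 0.0221, adjusted p = 0.326), with 1.41 without HFD 335 and 0.61 without HFD 334. Summed markers of Kupffer cells and macrophages were 121 and 109 CPM in HFD and 150 and 142 CPM in I3A, with 5 of 8 apart on the higher side and 1 on the lower, beside 23.1% and 22.5% of tested genes; their part in the Cd163 value was not tested. Lrp1, the receptor of the hemopexin-haem complex, measured 690 and 789 CPM in HFD and 763 and 1047 CPM in I3A, so that the groups overlapped (log2 fold change 0.29 ± 0.18, SE; edgeR adjusted p = 0.531; 0.042 without I3A 305). Slc48a1, a haem transporter of lysosomes, had 0.35 ± 0.11 (edgeR adjusted p = 0.329), Blvrb, a biliverdin reductase, -0.31 ± 0.11 (edgeR adjusted p = 0.359) and the iron exporter Slc40a1 -0.37 ± 0.20 (edgeR adjusted p = 0.486). Hmox1, the inducible haem oxygenase, measured 12.8 and 7.63 CPM in HFD and 13.7 and 10.03 CPM in I3A, and its sign turned without HFD 335 (-0.11). Summed erythroid markers were lower in both I3A libraries (163 and 160 CPM) than in both HFD libraries (187 and 313 CPM). The 313 CPM was in HFD 335, which held transcripts of other tissues. Of the 7 markers, 2 did not overlap between the groups on the lower side and 0 on the higher, beside 22.5% and 23.1% of tested genes. Their part in the values of Hp and Hpx was not tested.

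Of 9 genes of copper handling, not all of which act on ceruloplasmin, 3 stood at an unadjusted p under 0.05, all higher, beside 6.66% of tested genes (edgeR, median 0.19). They were the metallothioneins Mt1 (log2 fold change 3.43 ± 0.68, SE; 2.17 without I3A 305 and 4.11 without I3A 303) and Mt2 (3.34 ± 0.82; 6 counts in each HFD library; 1.95 without I3A 305, with an unadjusted p of 0.0884, and 4.05 without I3A 303) and the copper chaperone Atox1 (0.27 ± 0.097), with edgeR adjusted p of 0.214, 0.252 and 0.349. Atp7b, the pump that loads copper onto ceruloplasmin, measured 31.1 and 24.2 CPM in HFD and 28.6 and 34.2 CPM in I3A, with overlapping groups as for Fetub (log2 fold change 0.19 ± 0.17, SE; edgeR adjusted p = 0.676). Slc31a1, the copper importer, had 0.19 ± 0.093 (edgeR adjusted p = 0.459).

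Next to the fetuin genes on chromosome 16 lie Hrg, for histidine-rich glycoprotein, and the kininogen genes, all of the cystatin superfamily. Of 9 tested genes in the list of cystatin relatives and fetuin partners, 4 stood at an unadjusted p under 0.05, all higher, beside 6.66% of tested genes (edgeR; median 0.25). Kng1 (0.31 ± 0.12, log2 fold change and SE) and Kng2 (0.32 ± 0.12) were among them, with edgeR adjusted p of 0.381 and 0.349, as were the insulin receptor gene Insr (0.25 ± 0.091; adjusted p = 0.353) and Enpp1, a pyrophosphate-generating enzyme that limits mineralisation (0.37 ± 0.14; adjusted p = 0.373). Hrg measured 718 and 692 CPM in HFD and 758 and 918 CPM in I3A (0.25 ± 0.13; edgeR adjusted p = 0.476).

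**Figure D4:**
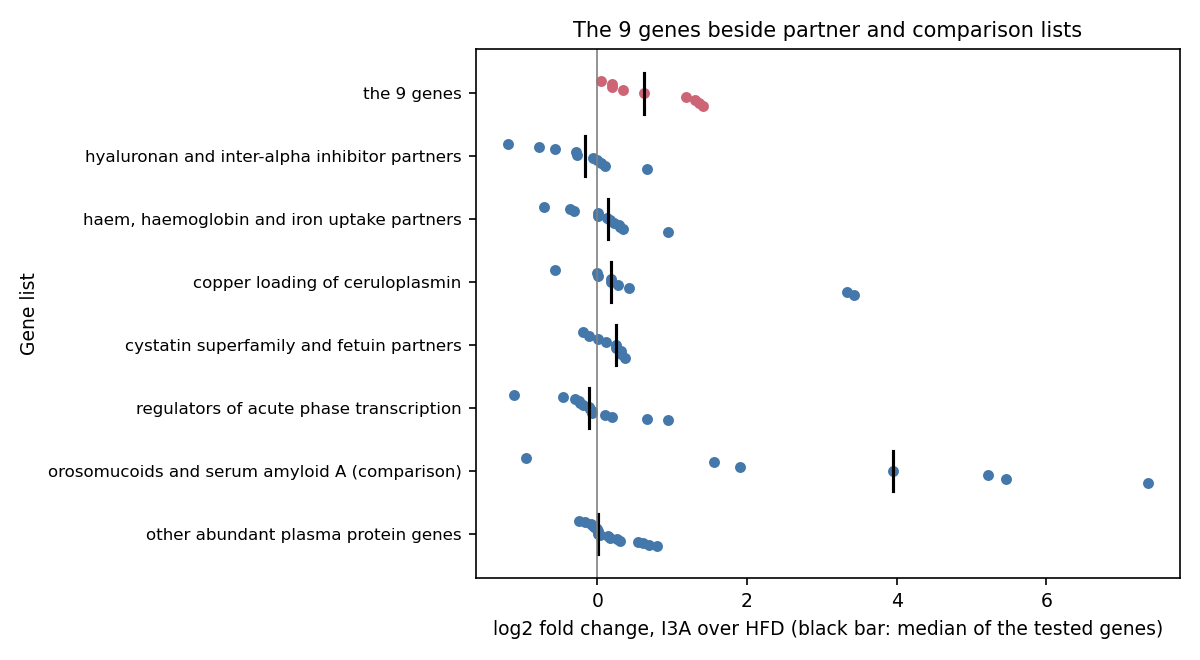
Log2 fold change of I3A over HFD (x axis) for each tested gene in 8 lists (y axis); red points are the 9 genes, blue points the partner and comparison lists, and black bars the medians. The 9 genes lie from 0.056 to 1.42 with a median of 0.63, the other abundant plasma protein genes from -0.25 to 0.79 with a median of 0.016, and the orosomucoid and serum amyloid A genes reach 7.35.

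Of 14 tested regulators of acute phase transcription, 2 stood at an unadjusted p under 0.05 on the higher side and 1 on the lower side, beside 6.66% and 6.24% of all tested genes (edgeR; median -0.10). Stat3, the factor downstream of IL-6, measured 97.3 and 93.1 CPM in HFD and 117 and 184 CPM in I3A (log2 fold change 0.66 ± 0.22, SE; edgeR adjusted p = 0.332; 0.29 without I3A 305). Stat3 was higher in I3A 305 than in I3A 303, as were 49.7% of tested genes. Cebpd, a C/EBP factor of the acute phase, measured 11.04 and 13.6 CPM in HFD and 21.1 and 26.3 CPM in I3A (0.94 ± 0.18; edgeR adjusted p = 0.211). Cebpb overlapped between the groups (0.20 ± 0.18; edgeR adjusted p = 0.677), and its sign turned without HFD 335 (-0.037). The receptor chains measured -0.066 ± 0.10 (Il6ra, edgeR adjusted p = 0.821), -0.24 ± 0.12 (Il6st, adjusted p = 0.452) and -1.11 ± 0.11 (Lifr, adjusted p = 0.141).

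Other abundant plasma protein genes lay closer to level than the 9 genes by their median: 19 tested genes such as Alb and Ttr had a median of 0.016, with 1 higher at an unadjusted p under 0.05, beside 6.66% of tested genes, the complement gene C3 (0.79 ± 0.22, log2 fold change and SE; edgeR adjusted p = 0.286). The fibrinogen genes Fga (0.54 ± 0.23), Fgb (0.70 ± 0.30) and Fgg (0.61 ± 0.25) had an edgeR adjusted p of 0.403 each. Without I3A 305 they measured 0.19 each. Of the 7 orosomucoid and serum amyloid A genes, 6 were above all members of the 9 in fold: Orm1 measured 356 and 385 CPM in HFD and 837 and 1351 CPM in I3A (1.56 ± 0.24; edgeR adjusted p = 0.163), and Orm2 (3.95), Saa1 (5.46) and Saa2 (7.35) lay far higher, whereas Saa4 was lower (-0.95). With single libraries left out the values ran from 2.99 to 4.53 for Orm2 (lowest without I3A 305), from 4.83 to 6.65 for Saa1 (lowest without HFD 334, highest without HFD 335) and from 6.58 to 7.99 for Saa2 (highest without HFD 335). Orm and Saa genes have near-identical relatives, so their values are uncertain as far as reads were split among copies. The difference between the 9 genes and these lists was not tested.

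Single libraries moved the estimates. Without I3A 303 the log2 fold changes were 1.33 (Hp), 1.65 (Hpx), 1.67 (Itih3) and 1.64 (Itih4). Without I3A 305 they were 1.04, 1.014, 1.13 and 0.88. Each of these fits rests on a single I3A liver, assumed to vary as the HFD livers do, so only sizes are given. Without a filter on low counts Hp, Hpx, Itih2, Itih3 and Itih4 passed edgeR's threshold (adjusted p from 6.28e-05 to 0.0292). That run tested 24119 genes, and the number called among them is given in the last section.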

How the data were processed

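Liver RNA came from a Trizol extraction and was sequenced from NEBNext Ultra libraries, per the labels' protocols. Reads were processed by the authors with HISAT2 and featureCounts 1.5.0-p3 on GRCm38, per the submitters' processing notes; not given in the sources used here are the gene annotation, strandedness and the handling of multimapping reads. The deposited file lists raw counts of each gene in 4 libraries, beside positions and gene lengths in bases. Positions of all 9 genes matched GENCODE M21.

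Libraries were grouped by title. Libraries of a group were not duplicates (chi-square over its degrees of freedom 32.6 in HFD and 29.8 in I3A), so each counted as 1; the labels do not say that each is its own animal, so p-values measure the spread between these libraries. Counts of all genes were fitted with edgeR 4.0.16 in R 4.3.3 (filterByExpr with a minimum of 10 counts, TMM, quasi-likelihood, group as the only term, 2-sided), with Benjamini-Hochberg adjustment over 13403 genes at 0.05. The biological coefficient of variation was 19.9%. The SE is the log2 fold change divided by the root of F. Zero counts allow up to 3 counts; intervals and such limits cover counting error only.

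The 9 genes, lists and tests were chosen with earlier results of these data known. Named partners were up to 4 per list with the smallest unadjusted p and a mean of at least 2 CPM, plus 14 fixed genes. Likeness used log2 CPM with a prior count of 2. Alternatives covered scaling (RLE, upper-quartile, library size), filters, single libraries left out, DESeq2 1.42.0, voom of limma 3.58.1, an adjusted p of 0.1 and, added after the data were seen, a robust fit. edgeR, DESeq2 and limma-voom were also run on simulated counts with known changes. These counts had the same spread in both groups and no library with transcripts of other tissues. No conclusion on the differing calls of these tools is drawn from them. Promoters are those of RefSeq, GRCm38.p6.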

Additional observations from a re-analysis of the deposited data

How the results depend on the processing

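Hp, Hpx, Cp, Itih1, Itih2, Itih3, Itih4 and Ahsg stayed higher in I3A in every alternative run. Fetub turned with library size scaling (-0.035) and without I3A 305; its leave-one-out values ran from -0.082 to 0.20. Calls at an adjusted p of 0.05 appeared without a filter (Hp 1.19, Hpx 1.37, Itih2 0.63, Itih3 1.42, Itih4 1.31) and in DESeq2 (Hp 1.19, Hpx 1.36, Itih2 0.63, Itih3 1.42, Itih4 1.30), on the log2 scale. The leave-one-out values ran from 1.04 to 1.33 (Hp), 1.014 to 1.65 (Hpx), 1.13 to 1.67 (Itih3) and 0.88 to 1.64 (Itih4). The median of the 9 ran from 0.41 to 0.83 with single libraries left out. In these fits the number of the 9 higher in I3A without overlap ran from 8 to 9, and the number of the 9 lower in I3A without overlap from 0 to 1. With a single library in a group, non-overlap arises more easily. The shares of all tested genes given above are from the full data, so they cannot be set beside these counts. Genes called over the whole table numbered 0 at first, 619 without a filter (232 higher, 387 lower), 335 in DESeq2 (181 higher, 154 lower) and 0 to 343 with single libraries left out (0 to 39 higher, 0 to 304 lower). The cause was not tested. Library size scaling moved the median of all genes to -0.099 from -0.010. Among partner genes, Ambp (-0.020 to 0.23), Cebpb (-0.037 to 0.49), Hmox1 (-0.11 to 0.65, with -0.0070 without I3A 303) and Il6ra (-0.12 to 0.0040) changed sign when single libraries were left out. Partner genes called without a filter were C3, Cebpd, Lifr, Mt1, Mt2, Orm1, Orm2, Saa1, Saa2, Saa4 and Stat3, and in DESeq2 the same except Stat3, and Mt2, which DESeq2 left without an adjusted p. Fits with single libraries left out leave a single library in a group, so their calls are not listed. No paired analysis was possible because the groups share no library numbers. Each of the 9 genes had at least 6595 counts in every library, so counting error adds little to their spread.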
